A study of Mus musculus with 2 samples.

Results

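The 35 genes described here encode the enzymes of cholesterol synthesis and of fatty acid synthesis, elongation and desaturation, with 4 regulators and carriers of sterols. They were chosen by symbol from the 32285 genes of the count matrices as genes of the SREBP pathway, with earlier results of these libraries in view. All 35 symbols were found. The members are 19 sterol synthesis enzymes (8 of the mevalonate arm and 11 from squalene to cholesterol), Srebf1, Srebf2, Insig1 and Stard4, 5 fatty acid synthesis genes and 7 elongases and desaturases. Since the difference between the libraries was known when the genes were picked, it is described below and not tested.

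The data are 2 droplet libraries of single cells, read at the 3′ end of their transcripts, of CD45.2-negative (structural) cells sorted from lung: 1 of WT mice of strain C57B6/J and 1 of mice labelled Plaur KO. Plaur encodes uPAR, the urokinase receptor. The design names 8 mice of each genotype, all of them given lipopolysaccharide with ovalbumin on days 0 and 7 and exposed to ovalbumin aerosol on day 14, and how many mice each library held is not given in the sources used here. As each genotype has 1 library and so no replicate, genotype, library and mice cannot be told apart and no p-value is given. The labels give no age of the mice and do not say how the Plaur allele was disrupted.

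Cholesterol is built from acetyl-CoA through mevalonate, isoprenoid diphosphates, squalene and lanosterol. The SREBP transcription factors, encoded by Srebf1 and Srebf2, are held in the endoplasmic reticulum with Scap by the Insig proteins when sterols are plentiful, and are released and cleaved when sterols are scarce. They then switch on genes for sterol and fatty acid synthesis, SREBP2 mainly the former and SREBP1 mainly the latter. Alveolar type 2 (AT2) cells make pulmonary surfactant, a lipid film rich in saturated phosphatidylcholine that also holds cholesterol.

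Promoter sequences from RefSeq (GRCm38.p6) were at hand for 28 of the 35 members. They were searched on both strands from 250 bases before to 50 bases after the annotated start. The CCAAT box (CCAAT), the letters bound by NF-Y, was found at 24 of the 28 members and at 41.1% of all 27025 genes, or 37.4% of all 32851 promoters of this length. It was found at 15 of 16 sterol enzymes and 6 of 9 fatty acid genes. The GC box (GGGCGG) was at 22 of the 28 members and 38.2% of all genes (35.7% of promoters), and the E-box (CACGTG) at 5 members, Hsd17b7, Insig1, Sc5d, Dhcr7 and Elovl5, and 8.09% of all genes (7.15% of promoters). The SREBP-type letters TCACNCCAC were found at 1 member, Hmgcs1, and at 1.44% of all genes (1.24% of promoters). A match is a description of the letters and not of a bound factor. Upstream stretches of 4 genes are shown, each the 250 bases before the start, 5′ to 3′ on the gene's strand: Hmgcs1 as the member with the SREBP-type letters, Idi1 and Cyp51 as enzymes with higher counts in the KO-labelled library, and Fasn as a fatty acid gene with nearly equal counts. Capitals mark CCAAT or its reverse complement and, in Hmgcs1, the SREBP-type match TCACCCCAC, which starts at base 114.
Hmgcs1 (chr13:119690101-119690350, plus strand): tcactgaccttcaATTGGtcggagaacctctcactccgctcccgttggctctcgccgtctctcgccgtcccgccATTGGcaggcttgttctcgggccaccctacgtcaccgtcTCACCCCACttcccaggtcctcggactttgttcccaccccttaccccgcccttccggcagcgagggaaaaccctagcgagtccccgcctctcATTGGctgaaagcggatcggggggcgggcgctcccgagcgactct
Idi1 (chr13:8885356-8885605, plus strand): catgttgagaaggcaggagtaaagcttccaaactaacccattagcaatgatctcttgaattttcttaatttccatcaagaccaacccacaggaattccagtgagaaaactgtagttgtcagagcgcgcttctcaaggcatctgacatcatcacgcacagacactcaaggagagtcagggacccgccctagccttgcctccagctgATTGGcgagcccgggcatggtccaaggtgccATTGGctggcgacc
Cyp51 (chr5:4104698-4104947, minus strand): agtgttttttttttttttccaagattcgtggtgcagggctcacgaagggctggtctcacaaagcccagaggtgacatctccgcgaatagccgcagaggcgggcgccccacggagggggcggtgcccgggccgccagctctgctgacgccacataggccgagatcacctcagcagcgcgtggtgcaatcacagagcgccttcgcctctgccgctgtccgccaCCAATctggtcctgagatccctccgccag
Fasn (chr11:120824548-120824797, minus strand): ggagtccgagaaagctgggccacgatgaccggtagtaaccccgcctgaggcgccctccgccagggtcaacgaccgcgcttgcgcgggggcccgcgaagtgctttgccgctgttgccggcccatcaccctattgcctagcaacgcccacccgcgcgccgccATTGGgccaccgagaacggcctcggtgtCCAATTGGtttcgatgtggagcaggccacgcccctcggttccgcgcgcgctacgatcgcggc
Hmgcs1 held 3 CCAAT boxes in the stretch shown and a further one after the start, Idi1 held 2, Cyp51 held 1 and Fasn 3, 2 of which overlap. The starts meant here are those of RefSeq. By GENCODE M21, Idi1 starts at base 8885501 of chr13 and Cyp51 at base 4104746 of chr5. Both lie within the stretches shown, and the marked boxes of these 2 genes come after those starts.

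The WT library held 11776 barcodes and 57028943 UMIs (unique molecular identifiers, the count of captured transcripts), the KO-labelled library 9771 and 51529241. After filters on genes and mitochondrial share and removal of marked doublets (5.69% and 1.92%), 10225 and 8934 cells were kept, whose median counts were 4837 and 5538 UMIs. The libraries shared 27 barcodes among the kept cells. Cells were clustered without the 35 members and named from markers. AT2-like cells were 3819 in the WT and 5819 in the KO-labelled library, or 37.3% and 65.1% of cells, with medians of 6382 and 6176 UMIs and all 11 AT2 markers present. Plaur was counted at 2.22 CPM (UMIs scaled to 1e6 in the class) in WT and 17.4 CPM in KO-labelled AT2-like cells. In neutrophil-like cells (145 and 25) it was lower in the KO-labelled library, at 1781 CPM in WT and 979 CPM there. Its transcript was still counted and so does not show the knockout, and the library is called by its label throughout. Levels are not compared between genes, since 3′ counts are not per length.

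In AT2-like cells, the enzymes of sterol synthesis had more transcripts in the KO-labelled library, while the SREBP genes themselves and the core of fatty acid synthesis differed little. The 19 sterol enzymes together took 979 CPM (24729 UMIs) in WT and 1364 CPM (51283 UMIs) in the KO-labelled library. Their log2 ratio of KO-labelled over WT was 0.48 (exact 95% interval 0.46 to 0.50, which covers counting error only), or 1.39-fold. The 12 fatty acid genes took 7141 and 7427 CPM, a log2 ratio of 0.06 (0.05 to 0.07). A gene was called higher or lower at a log2 ratio of at least 0.5 in size and measured with at least 50 UMIs over both libraries. Of the 34 members measured in AT2-like cells, 8 were called higher and 1 lower. Over all 12321 genes measured in the class, 1.85% were called higher and 7.12% lower, and nothing is read from the members' count beside it because they were picked with this contrast known. Scaling by TMM, by the class median, or with the 50 most abundant genes left out turned the 8 and 1 into 13 higher and 0 lower. The median log2 ratio was 0.30 over the members and -0.10 over all genes, and 26 of 34 members lay above 0 against 29.3% of all genes. The interval lay wholly above 0 for 23 members and wholly below it for 4.

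**Figure D1:**
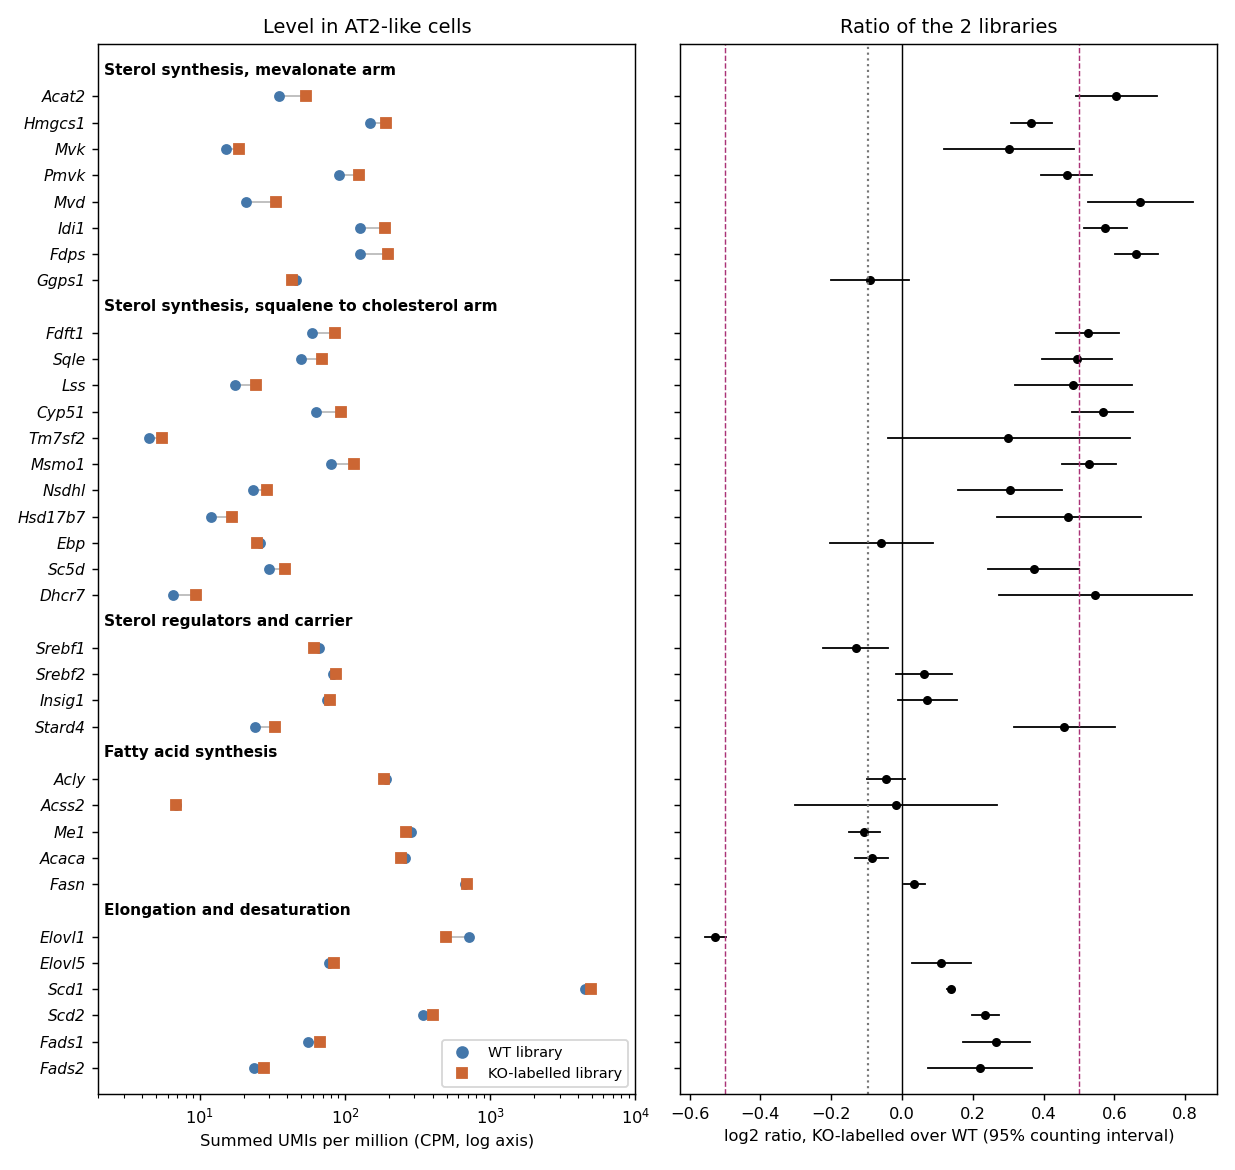
Level (left, summed CPM on a log axis; circles WT, squares KO-labelled) and log2 ratio with its 95% counting interval (right) of the 34 measured members in AT2-like cells, by role. The dotted line is the median of all genes (-0.10) and the dashed lines are the call at 0.5. All sterol enzymes but Ggps1 and Ebp lie to the right of 0, while Elovl1 alone lies past the lower line.

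In the mevalonate arm, 7 of 8 enzymes were above 0 and 4 were called higher. Mvd, which decarboxylates mevalonate diphosphate, had 20.9 CPM in WT and 33.3 CPM in the KO-labelled library (log2 ratio 0.67, interval 0.52 to 0.82). Fdps, farnesyl diphosphate synthase (chr3:89093588-89101959, GRCm38), went from 125.7 to 198.8 CPM (0.66, 0.60 to 0.72). Acat2, which joins acetyl-CoA units in the cytosol, stood at 35.3 and 53.7 CPM (0.61, 0.49 to 0.72). Idi1, the isopentenyl diphosphate isomerase (chr13:8885501-8892451), stood at 126.5 and 188.3 CPM (0.57, 0.51 to 0.64). Below the call came Pmvk (90.9 and 125.5 CPM, 0.47), Hmgcs1, the HMG-CoA synthase (147.8 and 190.4 CPM, 0.37), and the mevalonate kinase Mvk (379 and 696 UMIs, 0.30). Ggps1, whose product geranylgeranyl diphosphate leaves the route to sterols for protein prenylation, was the exception at 45.6 and 42.8 CPM, and its interval of -0.20 to 0.02 included 0.

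From squalene to cholesterol, 10 of 11 enzymes were above 0 and 4 were called higher. The lanosterol demethylase Cyp51 stood at 63.0 CPM in WT and 93.3 CPM in the KO-labelled library (log2 ratio 0.57, 0.48 to 0.65). Dhcr7, which catalyses a last reduction to cholesterol, was low in both at 6.49 and 9.47 CPM (0.54, 0.27 to 0.82). Msmo1, a methylsterol oxidase, stood at 80.5 and 116.0 CPM (0.53, 0.45 to 0.60), and the squalene synthase Fdft1 at 59.3 and 85.2 CPM (0.52, 0.43 to 0.61). Fdft1 was the member just inside the call. The squalene epoxidase Sqle, at 49.4 and 69.6 CPM, was just outside it with a log2 ratio of 0.49, followed by the lanosterol synthase Lss (17.3 and 24.2 CPM, 0.48). Smaller ratios were those of Hsd17b7 (0.47), Sc5d (0.37), Nsdhl (0.30) and Tm7sf2 (0.30), and the interval of Tm7sf2, with 113 and 207 UMIs, included 0. Ebp, the sterol isomerase, was level at 25.8 and 24.8 CPM (-0.06, -0.20 to 0.09).

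The regulators did not share the size of the enzymes' difference. Srebf1 stood at 66.4 CPM in WT and 60.6 CPM in the KO-labelled library, a log2 ratio of -0.13 that lay close to the median of all genes. Srebf2 stood at 83.0 and 86.6 CPM (0.06, -0.02 to 0.14), and Insig1, itself a known SREBP target, at 74.8 and 78.7 CPM (0.07, -0.01 to 0.16). Stard4, a soluble sterol carrier, was nearer to the enzymes, at 24.0 and 33.0 CPM (0.46, 0.32 to 0.60). Transcript counts do not measure SREBP cleavage.

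None of the 5 fatty acid synthesis genes was called in either direction, and 1 of them was above 0. Fasn, the fatty acid synthase (chr11:120805846-120824547), had 16902 and 25797 UMIs, or 669 and 686 CPM, a log2 ratio of 0.04 (0.01 to 0.06). Acly, which makes cytosolic acetyl-CoA from citrate, stood at 191.3 and 185.4 CPM (-0.05). The acetyl-CoA carboxylase Acaca (258.7 and 243.8 CPM, -0.09) and the malic enzyme Me1 (284.6 and 264.3 CPM, -0.11) lay slightly below 0. Acss2, which activates acetate, was low at 6.89 and 6.81 CPM. These 5 ratios were close to the median of all genes. That of Acaca turned to values of 0.01 to 0.02 when the ratios were centred on that median, scaled by TMM or taken from libraries clustered apart. Acly (-0.062 to 0.115) and Acss2 (-0.375 to 0.205) also lay on both sides of 0 under other ways of processing.

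Elongases and desaturases went different ways. Elovl1, which extends saturated and monounsaturated chains to very long chains (chr4:118428093-118432953), was the only member called lower: 716 CPM (18089 UMIs) in WT and 497 CPM (18685 UMIs) in the KO-labelled library, a log2 ratio of -0.53 (-0.56 to -0.50). Under the other scalings it stood between -0.46 and -0.43, short of the call. Scd1, which puts the double bond into stearoyl-CoA (chr19:44394455-44407879), stood at 4514 and 4963 CPM (0.14, 0.13 to 0.15), and its paralog Scd2 at 342 and 403 CPM (0.24). The desaturases of polyunsaturated fatty acids, Fads1 (55.8 and 67.1 CPM, 0.27) and Fads2 (23.6 and 27.5 CPM, 0.22), and the elongase Elovl5 (77.4 and 83.6 CPM, 0.11) were slightly above 0. Elovl6, which extends palmitate to stearate, had 6 and 2 UMIs in all AT2-like cells and was not measured there.

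By the medians of their lists, the other genes of these pathways did not follow the sterol enzymes, though single genes such as Apoe were higher. The lists lack 6 genes that were taken out after values had been seen. Of 5 further enzymes and electron donors of sterol synthesis, 0 were called and 2 were above 0, with Por (0.14) and Cyb5b (0.07) highest and Cyb5r3 (-0.17) and Lbr (-0.04) lowest. Of 9 genes of SREBP processing and sterol sensing, 0 were called and 2, Rnf145 and Erlin1, were above 0. The lowest were the SREBP protease Mbtps1 (-0.19) and Rnf139 (-0.18), and Insig2 (42.2 and 39.9 CPM) and Scap (26.8 and 26.3 CPM) lay at -0.08 and -0.02. Among 10 measured genes of sterol uptake and trafficking, 3 were above 0 with Npc2 and Stard3 highest, and the lipoprotein receptors Lrp1 (1.31 and 0.691 CPM, -0.92) and Vldlr (-0.48) were lowest. Only Lrp1 was called. Efflux and storage genes split: Apoe, the apolipoprotein that carries lipids out of cells, stood at 311 CPM in WT and 543 CPM in the KO-labelled library (log2 ratio 0.80, 0.77 to 0.84), and the cholesterol exporter Abca1 at 11.9 and 6.46 CPM (-0.88, -1.13 to -0.64). These 2 were the called genes of the 6 measured in that list, in which Nr1h3 (0.19) came next and the esterifying enzyme Soat1 (-0.26) was also low. Summed, that list was higher in the KO-labelled library in each AT2-like cluster, with log2 ratios from 0.237 in cluster 1 to 0.485 in cluster 14.

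NADPH is the reductant of both pathways. On the fatty acid side, all 6 genes listed for NADPH supply and the pentose phosphate route were below 0, with a median of -0.39 and none called. Pgd of the pentose phosphate route stood at 126.1 and 90.6 CPM (-0.48) and Mthfd2 at -0.42, while Tkt (-0.04) and Idh1 (-0.17) were nearest to 0. Of 9 genes of fatty acid oxidation, 1 was above 0 and none was called, from Cpt1a (-0.48) and Etfdh (-0.23) to Hadha (-0.14), with Acadvl at 0.01. In the list of 18 genes of acyl activation, glycerolipid and phosphatidylcholine synthesis, 8 were above 0, led by Acsl3 (0.37) and Lpin2 (0.26), and the lowest were Dgat2 (-0.77, on 32 and 28 UMIs) and Chpt1 (-0.26). Of 13 measured further genes of fatty acid synthesis, 3 were above 0, with Mid1ip1 (0.13) and Tecr (0.07) highest and Acacb (-0.45) and Elovl7 (-0.25) lowest. Against the median of -0.10 over all genes, the medians of these lists ran from -0.39 to -0.02.

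The sterol difference was present in each of the 6 AT2-like clusters, which were found without the member genes. The WT sums ran from 690 CPM in cluster 10 to 1202 CPM in cluster 0, and the KO-labelled sums from 1109 CPM in cluster 10 to 1570.0 CPM in cluster 0. Cluster 10 is led by Ly6i and Iigp1, and cluster 0 by Lgi3 and Hc. In no cluster did the 2 libraries' intervals meet. The log2 ratio was 0.39 in clusters 0 and 7, 0.47 in cluster 14, 0.57 in cluster 3, 0.61 in cluster 1 and 0.68 in cluster 10. Fdps, Idi1, Hmgcs1, Pmvk, Acat2, Cyp51, Msmo1, Fdft1 and Sqle were higher in the KO-labelled library in 6 of 6 clusters, as were Elovl5, Scd2 and Fads1, and Elovl1 was higher in 0 of 6. The fatty acid sum had no common direction: its log2 ratio was 0.18 in cluster 7, led by Cldn18, Aqp5 and Ager, and -0.20 in cluster 10. Fasn was higher in 5 clusters and Scd1 in 4. Cluster 0 held the highest level of most members, with Elovl1 at 895 CPM in WT and 618 CPM in the KO-labelled library.

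**Figure D2:**
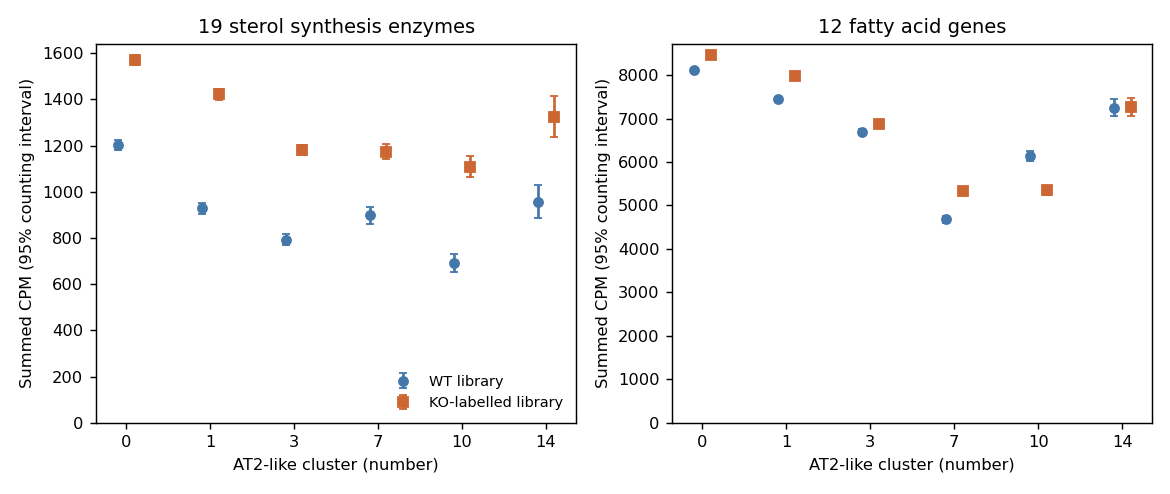
Summed CPM of the 19 sterol synthesis enzymes (left) and the 12 fatty acid genes (right) in each AT2-like cluster, with 95% counting intervals; circles are the WT and squares the KO-labelled library. The sterol squares lie above the circles in all 6 clusters, and the fatty acid sums cross over at cluster 10.

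The sterol difference was not carried by a few cells. In WT AT2-like cells, sterol enzymes took a median of 0.0754% of a cell's UMIs (quartiles 0.0386% and 0.140%), against 0.115% (0.0593% and 0.193%) in the KO-labelled library, or a median of 5 and 7 UMIs per cell. The quartiles overlap widely between the libraries. The 3 cells richest in these transcripts held 0.566% and 0.333% of the class sum. For fatty acid genes the medians were 0.623% and 0.661%, with 40 UMIs per cell in both. Beside this, the summed level of the markers of other cell types in AT2-like cells was lower in the KO-labelled library for 20 of 24 lists, among them the 10 airway secretory markers (2039 and 1226 CPM) and the 11 adventitial fibroblast markers (186 and 127 CPM), all of them seen. It was higher for 4 lists: red cell markers (5 of 6 seen) stood at 0.356 CPM in WT and 58.3 CPM in the KO-labelled library, mast or basophil markers (4 of 6) at 78.0 and 95.7 CPM, alveolar fibroblast markers (10 of 11) at 1092 and 1170.0 CPM and AT1 markers (10 of 10) at 2056 and 2100.0 CPM. The part of these in the sterol difference was not tested.

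Across cell classes the members had distinct patterns of level, and for many of them AT2-like cells stood highest. Over 13 classes with at least 20 cells per library, AT2-like cells had the highest level of 19 members in WT and 17 in the KO-labelled library, and of 15 in both. This ranking had no UMI minimum, and Acat2, for example, was highest in KO-labelled neutrophil-like cells on 3 UMIs. A different highest class in the 2 libraries is therefore not read as a shift. Scd1 was at 4514 and 4963 CPM there, against 332 and 1850.0 CPM in B or plasma-like cells, which came next and where Sftpc, a gene of AT2 cells, stood at 3.38% and 33.9% of its AT2-like level. Fasn, Acly, Acaca, Me1, Elovl1, Scd2, Fads1, Hmgcs1, Idi1, Mvd, Lss, Cyp51, Msmo1 and Insig1 were the other members highest in AT2-like cells in both libraries. In WT, 8 members were highest in the 80 neuroendocrine-like cells, among them Pmvk (197.8 CPM) and Fdps (146.3 CPM). That class had 20 cells in the KO-labelled library, where 4 members were highest in it.

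**Figure D3:**
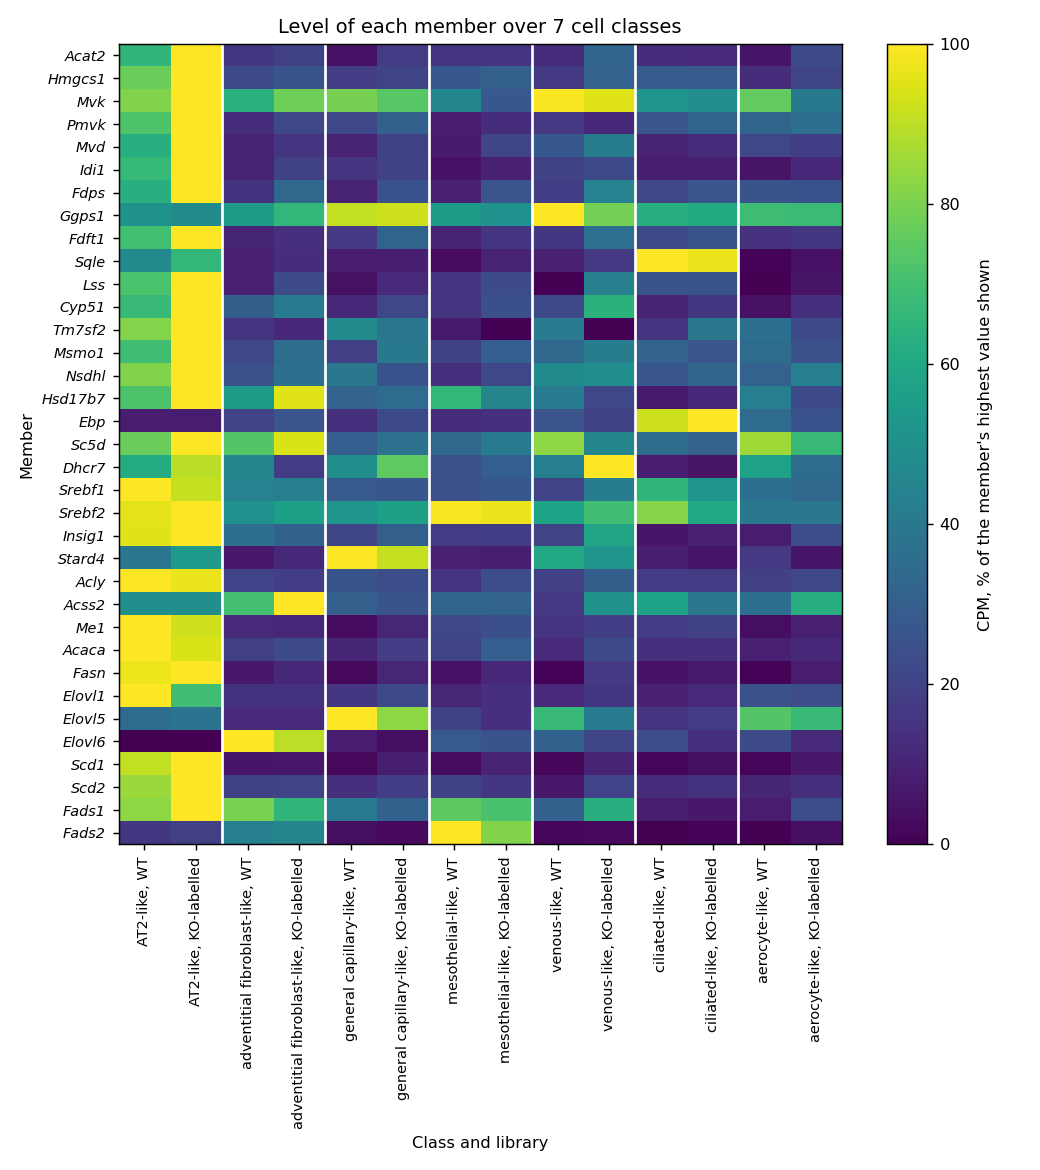
Level of each member in the 7 compared classes and 2 libraries, as a percent of the member's highest value shown (colour). Scd1, Fasn and most sterol enzymes are brightest in AT2-like cells, Elovl6 in adventitial fibroblast-like, Fads2 in mesothelial-like, Elovl5 and Stard4 in general capillary-like, and Ebp and Sqle in ciliated-like cells.

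Another 6 members were highest, in both libraries, in a compared class other than AT2-like cells. Elovl6 (chr3:129532355-129638495) stood at 169.1 CPM in WT and 152.0 CPM in KO-labelled adventitial fibroblast-like cells, against 0.238 and 0.0532 CPM in AT2-like cells. Ebp stood at 296 and 320.1 CPM in ciliated-like cells, and Sqle there at 104.9 and 101.9 CPM. Fads2 was highest in mesothelial-like cells, at 146.0 and 118.1 CPM. Elovl5 (219.4 and 181.9 CPM) and Stard4 (61.0 and 55.6 CPM) were highest in general capillary-like cells. For each of the 6, the class with the highest level was the same in both libraries, and the ratio between libraries in that class was under the call.

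Outside AT2-like cells, 5 of the other 6 compared classes also had a larger sterol sum in the KO-labelled library, with an interval above 0. Compared classes had at least 100 cells in each library. In 4 of these 5 the log2 ratio came to about 0 or below once AT2 RNA was subtracted, by a scale that took off too much in some of them. Sftpc, a surfactant protein gene of AT2 cells, was counted in every class. Its level, as a percent of that in AT2-like cells of the same library, was 0.72% to 5.27% in the 6 WT classes and 4.32% to 11.9% in the KO-labelled ones. The AT2-like profile of each library, scaled by that percent, was therefore also subtracted. In general capillary-, venous-, aerocyte- and ciliated-like cells this took KO-labelled Scd1 below 0 CPM, so too much was taken off there. The subtracted sterol ratios of those classes are therefore not read as no difference or as a lower level. How far the scaled profile otherwise describes the free RNA was not tested.

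Adventitial fibroblast-like cells (1229 in WT and 452 in the KO-labelled library) held the larger sum after subtraction too. Their sterol sum was 367 CPM in WT and 529 CPM in the KO-labelled library, a log2 ratio of 0.53 (0.41 to 0.65), and 0.48 less AT2 RNA by Sftpc or 0.45 by Sftpb. Of 30 measured members, 9 were called higher and 0 lower, where 6.74% of all genes were higher and 7.96% lower. Fdps stood at 29.0 and 67.2 CPM (1.22, 0.84 to 1.59) and Idi1 at 18.0 and 36.4 CPM (1.02, 0.51 to 1.52). All 15 measured sterol enzymes were above 0. The lowest members were Fads1 (-0.28) and Insig1 (-0.24), and Elovl1 was level at 105.1 and 104.3 CPM. Scd1, with the most UMIs of the members, stood at 288 and 320.4 CPM and at 50.4 and 1.55 CPM less AT2 RNA. Fasn kept a ratio above the call, with 48.0 and 77.9 CPM as counted and 12.7 and 33.8 CPM less AT2 RNA. The class joins 2 clusters. Cluster 6 (766 and 342 cells) had 7 class markers among its 50 leading genes. Its foremost genes included Mgp, Mfap4, Saa3, Timp1 and Inmt, and Inmt is on the marker list of alveolar fibroblasts. Cluster 9 (463 and 110 cells) had 10 class markers, with Dcn, Ccl11, Clec3b and Pi16 among its foremost genes. The class name thus rests on fewer markers in cluster 6. In cluster 6 the sterol log2 ratio was 0.54 (0.41 to 0.68), and in cluster 9 it was 0.20 with an interval of -0.06 to 0.45. With marked doublets kept and all cells clustered anew, the class was left with 512 and 113 cells and a log2 ratio of 0.09. With each cell weighted equally the ratio was 0.39.

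General capillary-like cells had a sterol sum of 348 CPM in WT and 491 CPM in the KO-labelled library, a log2 ratio of 0.49 (0.34 to 0.65). Their Sftpc level was 1.82% and 11.9% of that in AT2-like cells, and less AT2 RNA the sums were 330.5 and 328.7 CPM (-0.01). Here 9 of 21 measured members were called higher and 0 lower, against 6.9% and 9.12% of all genes. The highest were Fasn (14.2 and 74.4 CPM, 2.39) and Scd1 (102.6 and 420.2 CPM, 2.03), and both went below 0 CPM in the KO-labelled library on subtraction, so that the Sftpc scale took off more than was there. Fdps (38 and 69 UMIs, 1.32) kept 17.7 and 26.2 CPM. The lowest were Fads1 (-0.41) and Elovl5 (-0.27), and Elovl1 went from 0.49 as counted to -0.01.

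Mesothelial-like cells showed 281 and 371 CPM for the sterol sum, a log2 ratio of 0.40 (0.26 to 0.54), and 0.03 less AT2 RNA. Of 27 measured members, 10 were called higher and 2 lower, against 7.12% and 15.6% of all genes. Scd1 (165.8 and 483 CPM) and Fdps (18.0 and 52.1 CPM) were both highest with a log2 ratio of 1.54, and Fdps kept 15.1 and 36.5 CPM less AT2 RNA. Mvk (-0.75) and Hsd17b7 (-0.53) were lowest, on 50 and 66 UMIs in all, while Fads2 and Srebf2 (85.6 and 84.2 CPM) were among the 3 members with most UMIs. Cluster 22 of this class, with 6 WT and 48 KO-labelled cells and sterol sums of 1018 and 1054 CPM, carried part of the difference: without it the ratio was 0.26 for sterol enzymes and 0.20, in place of 0.55, for fatty acid genes. The leading genes of cluster 22 included Msln, Gpm6a and Upk3b, but also Slc26a4 and Retnla. These last are also among the leading genes of AT2-like clusters 1, 3 and 10. Cells of cluster 22 had a median of 1469.5 UMIs.

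Ciliated-like cells had high sterol sums in both libraries, 716 and 760 CPM, with Ebp as the largest part, and a log2 ratio of 0.09 (0.02 to 0.15) that became -0.01 less AT2 RNA. Of 29 measured members 4 were called higher and 2 lower, against 3.82% and 7.12% of all genes. Scd1 (64.0 and 209.9 CPM, 1.71) and Cyp51 (9.04 and 15.1 CPM, 0.74) were highest as counted. Less AT2 RNA, Scd1 was at 9.66 and -4.33 CPM, so that the Sftpc scale took off more than was there and no ratio is given. Cyp51 was under the call less AT2 RNA, at a log2 ratio of 0.42. Elovl6 (40.6 and 22.5 CPM, -0.85, interval -1.23 to -0.48) and Acss2 (-0.55) were lowest, and Srebf2 was also lower at 71.0 and 51.9 CPM (-0.45).

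In aerocyte-like cells, capillary cells of gas exchange, the sterol sums were 439.5 and 433 CPM (-0.02, -0.23 to 0.18), and -0.35 less AT2 RNA. Of 15 measured members 3 were called higher and 2 lower, against 5.64% and 7.98% of all genes. Fasn (7.04 and 54.7 CPM) and Scd1 (93.5 and 339.6 CPM) were highest, and Elovl6 (39.2 and 19.9 CPM, -0.98) and Msmo1 (41.2 and 28.6 CPM, -0.53) lowest. Less AT2 RNA, Scd1 was at 50.8 and -6.03 CPM, so that the Sftpc scale took off more than was there and no ratio is given. Fasn was left at 0.702 and 6.96 CPM. Elovl1 and Elovl5, with Scd1 the members with most UMIs here, lay at -0.08 and -0.12. Venous-like cells measured only 5 members, of which 1, Scd1 (84.7 and 486.7 CPM), was called higher and 1, Elovl5 (148.7 and 91.7 CPM), lower, against 6.51% and 16.3% of all genes. Less AT2 RNA, Scd1 was at 51.9 and -40.6 CPM, so that here too the scale took off more than was there. Elovl1 was at 0.42 and Ebp at -0.41. The venous sterol sums were 476 and 603 CPM, with an interval of 0.04 to 0.64, and the ratio was -0.03 less AT2 RNA. The airway gene Scgb1a1 was at 1521 CPM in WT and 34070 CPM in KO-labelled venous-like cells, and its part in these values was not tested.

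**Figure D4:**
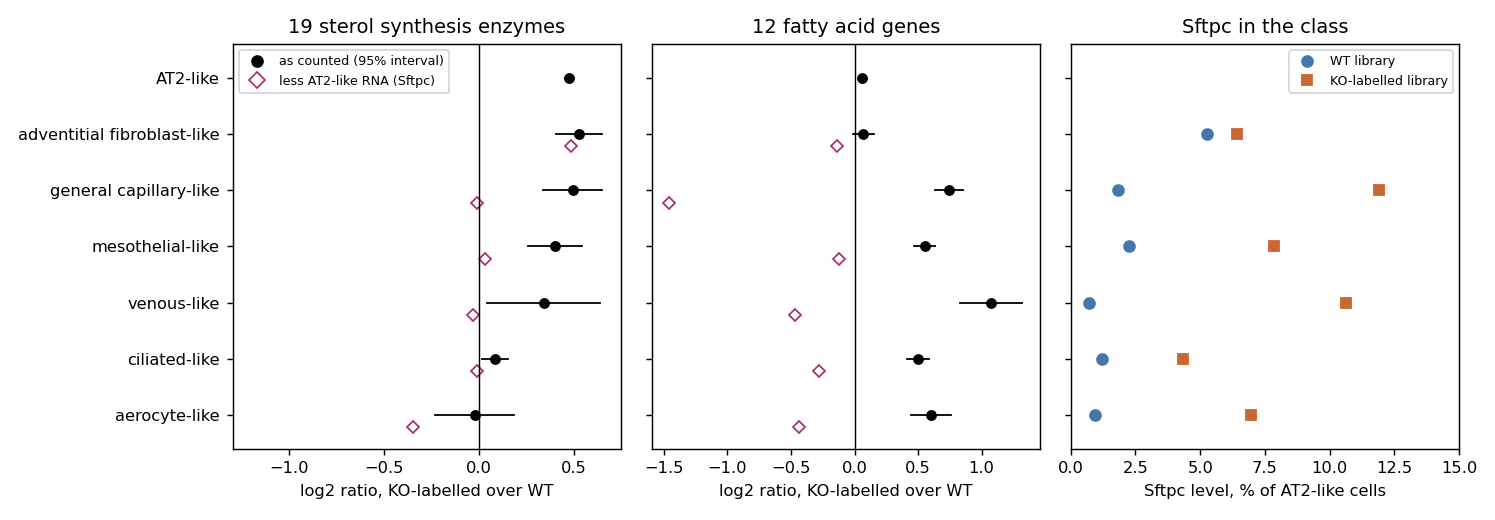
Log2 ratio (KO-labelled over WT) of the summed sterol enzymes (left) and fatty acid genes (middle) in 7 classes, as counted with 95% intervals (filled) and less AT2-like RNA scaled by Sftpc (open); the right panel gives Sftpc as a percent of its level in AT2-like cells. On subtraction the sterol ratio stays at 0.48 in adventitial fibroblast-like cells and lies at or below 0.03 in the other 5 classes. Within the subtracted fatty acid sums, KO-labelled Scd1 falls below 0 CPM in general capillary-, venous-, aerocyte- and ciliated-like cells. The sterol sums were subtracted on the same scale, so the open symbols of these classes are not read as no difference.

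The fatty acid sums as counted had a log2 ratio with an interval above 0 in 5 of these 6 classes. The log2 ratios were 0.60 in aerocyte-like, 0.50 in ciliated-like, 0.74 in general capillary-like, 0.55 in mesothelial-like and 1.07 in venous-like cells. Less AT2 RNA by Sftpc, all 5 were below 0, from -1.46 in general capillary-like to -0.13 in mesothelial-like cells. In all of these classes but mesothelial-like, Scd1 within the KO-labelled sum fell below 0 CPM, down to -170.1 CPM in general capillary-like cells. There the scale took off more than was there, so these ratios are not read as lower levels. In adventitial fibroblast-like cells, where Sftpc differed least (5.27% and 6.42%), the ratio was 0.07 with an interval that included 0. In classes with 20 to 99 cells in a library, the 3 cells richest in sterol transcripts held from 12.6% of the class sum (the 80 WT neuroendocrine-like cells) to 85.7% (18 of 21 UMIs in the 25 KO-labelled neutrophil-like cells). In the 35 KO-labelled smooth muscle-like cells, 3 cells held 82 of 132 sterol UMIs, and their Sftpc level was 102900.0 CPM against 11240.0 CPM in the other cells of the class. Airway secretory-like cells (346 and 96) had sterol sums of 289.5 and 258.7 CPM, with an interval of -0.33 to 0.01.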

How the data were processed

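The authors deposited raw UMI counts per gene and barcode for 2 libraries, made with Cell Ranger (7.0.0 per the file headers, 7.0.0 and 7.1.0 on mm10 per the submitters' processing notes). How barcodes were chosen and whether intronic reads or strand were used is not given in the sources used here. The cell filter asked for 500 genes or more and a mitochondrial share of 15% or less, and Scrublet doublets (scanpy 1.11.5, expected share 8%) were removed. Both libraries were clustered together (2000 variable genes, 30 components, 15 neighbours, Leiden resolution 1, leidenalg 0.10.2) without the members and other pathway genes. A class needed 3 of its markers among a cluster's 50 leading genes.

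UMIs were summed per class and library and divided by the class total (CPM). Ratios have exact conditional binomial 95% intervals and CPM exact Poisson ones. The ratio intervals and the call were checked on Poisson counts simulated at the depths of AT2-like and venous-like cells. That check covers no other step and no variation between libraries. The members, lists and tests were chosen with earlier results of these data known. All 35 members are named. Of each other list, the 2 highest and 2 lowest genes in AT2-like cells are named, with Insig2, Scap and Abca1. In other classes the 3 members with most UMIs, the 2 highest and the 2 lowest are named. Other genes, such as those leading a cluster, were chosen after their values were seen. Of the other lists, 6 genes were taken out after values had been seen, so the rule for names was applied without them, and they are not reported here. Alternatives covered cell filters, doublets, resolution, scaling (edgeR 4.0.16 TMM), thinning, means over cells, UMI minimums, the call and AT2 RNA subtraction. Mesothelial-like cells without cluster 22 were added after seeing the data.

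Positions are from GENCODE M21 (GRCm38), promoters from RefSeq. Of the members, 11 overlap a gene on the other strand (Fdft1 with Ctsb, Cyp51 with Akap9 and Elovl1 with Cdc20 among them) and Tm7sf2 overlaps Vps51 on the same strand, so some reads of these pairs may not be told apart.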

Additional observations from a re-analysis of the deposited data

How the results depend on the processing

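In AT2-like cells the sterol sum had a log2 ratio above 0.4 under every alternative run: 0.59 with libraries clustered apart, 0.57 under TMM scaling and when centred on the class median, 0.54 with totals that leave out the 50 most abundant genes, 0.45 as a mean over cells and 0.42 in cells thinned to 1000 UMIs. The fatty acid sum was 0.17, 0.15, 0.15 and 0.12 under the first 4 of these and 0.023 with the stricter cell filter. Members called higher numbered 13, and lower 0, under those same 4. With libraries clustered apart, AT2-like cells numbered 3861 in WT and 4441 in the KO-labelled library. In that run 1175 KO-labelled cells were left unnamed, against 66 in the main run, so its ratio rests on a different set of KO-labelled cells. A call at 0.25 gave 19 higher, and a call at 1 gave 0 in either direction. The number of compared classes whose sterol ratio had an interval above 0 fell from 6 to 2 with a minimum of 200 UMIs, where fewer genes enter the sums. It was also 2 with AT2 RNA subtracted by Sftpc or by Sftpb, with the counted ratio's interval moved to the subtracted value and AT2-like cells left as counted. The moved interval does not cover the error of the subtraction, so this count is a rough one. Mesothelial-like cells then stood at 0.03 and 0.004. Single members turned their sign at small values: Nsdhl to -0.05 and Fads2 to -0.026 in thinned cells. Srebf1 turned to 0.067 in thinned cells and 0.01 with libraries apart. Acaca turned to 0.024 with libraries apart, 0.010 when centred and 0.008 under TMM. Over the alternatives, Acly (-0.062 to 0.115), Acss2 (-0.375 to 0.205), Ebp (-0.097 to 0.067) and Ggps1 (-0.153 to 0.005) also lay on both sides of 0. For single members and class sums the cause was not tested.

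With AT2 RNA subtracted by Sftpc and by Sftpb, fatty acid sums turned to -0.44 and -0.79 in aerocyte-like, -0.28 and -0.42 in ciliated-like, -1.46 and -0.94 in general capillary-like, -0.13 and -0.20 in mesothelial-like and -0.47 and -1.37 in venous-like cells. By Sftpc, KO-labelled Scd1 within these sums fell below 0 CPM in all of these classes but mesothelial-like, so too much was taken off there. Sterol sums turned to -0.008 and -0.018 in ciliated-like and -0.033 and -0.117 in venous-like cells. In general capillary-like cells the sterol sum turned to -0.008 by Sftpc but 0.05 by Sftpb. The sterol values by Sftpc rest on the same scale that took off too much Scd1, so they are not read as no difference. No paired analysis was possible because each genotype has 1 library and no test was made. Depth limits the small classes: 5 members reached 50 UMIs in venous-like cells, against 34 in AT2-like cells.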
